A study of Mus musculus with 22 samples.

Results

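The Polycomb genes examined here were the 9 mouse genes Ezh1, Ezh2, Eed, Suz12, Bmi1, Cbx2, Cbx7, Cbx8 and Kdm6b, out of 21842 protein-coding genes of the GENCODE M21 annotation. They were chosen by name, and each locus was taken as the gene body plus 20 kb on each side on the mm10 (GRCm38) assembly. The 9 loci held 14 of 16244 H3K4me3 regions and 17 of 24299 H3K27ac regions, where a region is the union of overlapping peaks over all lists of a mark. The cells were G1ER (G1E-ER4), a mouse erythroid progenitor line that lacks its own GATA1 and carries GATA1 fused to an estrogen receptor domain (GATA1-ER), so that β-estradiol switches GATA1 on and starts differentiation. All groups, the untreated one included, thus share the loss of GATA1 and the fusion protein, in 1 line grown with stem cell factor and erythropoietin. ChIP-seq peaks were listed for undifferentiated cells (0 h) and for cells 2, 6, 12 and 24 h after β-estradiol, with 2 lists per time point for H3K4me3, a mark of active promoters, and 2 for H3K27ac, a mark of active promoters and enhancers. The DNA-binding protein CTCF had 1 list at 0 h and 1 after 24 h.

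Polycomb proteins keep genes silent through histone marks. In Polycomb repressive complex 2 (PRC2), EZH1 or EZH2 is the enzyme that methylates lysine 27 of histone H3, while EED and SUZ12 are core subunits that the enzyme needs. CBX proteins read that mark as part of PRC1, in which BMI1 supports the ligase that ubiquitylates histone H2A, and KDM6B removes the methyl groups again. EZH2 is typical of dividing progenitors and EZH1 of cells that have left the cell cycle, and blood cell maturation is a known setting for a shift from EZH2 towards EZH1. The question put to the lists was whether the active marks at the genes themselves, Ezh1 and Ezh2 above all, were present, lengthened or shortened as GATA1 acted.

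The lists held 12925 to 14452 peaks for H3K4me3 and 17247 to 18333 for H3K27ac, with a longest peak of 9200 and 8973 bp. They hold positions and a score per peak but no read counts, so the depth behind a value is unknown. Of 10 erythroid marker genes, 9 had an H3K4me3 peak within 2 kb of the transcription start site (TSS) in 8 or more lists, and Tal1 had none. H3K27ac peaks were in all 10 lists for 1 of these 10 genes, in some lists for 5, and in none for 4, Tal1 and Kit among them. No peak of either mark was listed at any of 10 marker genes of other lineages. A missing peak therefore is a statement about the lists and not about the mark, and this holds for each absence given next.

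The promoters of Ezh1, Ezh2, Suz12, Cbx7 and Cbx8 are shown first, since the results contrast marked and unmarked promoters. Sequences are RefSeq's on GRCm38.p6, read 5′ to 3′ on the strand of the gene, and cover the longest stretch without an annotated exon in the 250 bases before the RefSeq start. Capitals mark matches on either strand to a GATA motif (the letters AGATAA, the letters AGATAG, the letters TGATAA or the letters TGATAG), an E2F motif (TTTCCCGC, TTTGGCGC, TTTCGCGC or TTTGCCGC) or a CACC box (CCACCC or CCACACCC).
Ezh1 (chr11:101226464-101226713, minus strand): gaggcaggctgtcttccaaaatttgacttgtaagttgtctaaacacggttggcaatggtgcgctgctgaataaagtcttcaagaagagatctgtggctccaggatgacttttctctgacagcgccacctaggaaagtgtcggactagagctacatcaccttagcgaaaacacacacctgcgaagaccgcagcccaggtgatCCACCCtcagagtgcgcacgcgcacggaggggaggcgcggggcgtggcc
Ezh2 (chr6:47595059-47595183, minus strand): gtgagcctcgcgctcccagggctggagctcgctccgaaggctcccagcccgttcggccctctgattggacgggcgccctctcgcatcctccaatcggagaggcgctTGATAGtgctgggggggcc
Suz12 (chr11:79992856-79993105, plus strand): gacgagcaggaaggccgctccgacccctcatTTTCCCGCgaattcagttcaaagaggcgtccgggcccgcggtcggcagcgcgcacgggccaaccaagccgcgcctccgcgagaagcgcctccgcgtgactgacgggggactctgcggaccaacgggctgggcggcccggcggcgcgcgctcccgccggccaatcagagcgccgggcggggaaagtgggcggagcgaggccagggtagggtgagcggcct
Cbx7 (chr15:79932769-79932896, minus strand): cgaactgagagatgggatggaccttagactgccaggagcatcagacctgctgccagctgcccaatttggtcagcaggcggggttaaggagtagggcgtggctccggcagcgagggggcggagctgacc
Cbx8 (chr11:119040970-119041163, minus strand): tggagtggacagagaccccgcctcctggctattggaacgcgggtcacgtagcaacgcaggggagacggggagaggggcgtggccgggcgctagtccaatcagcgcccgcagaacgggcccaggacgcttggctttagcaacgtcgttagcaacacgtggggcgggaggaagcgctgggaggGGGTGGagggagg

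RefSeq promoters were at hand for 7 of the 9 genes, all but Cbx2 and Kdm6b. Over the full 250 bases, Suz12 was the only one of the 7 with an E2F match, TTTCCCGC at position -219 from the RefSeq start, a motif found in 1.86% of 32851 promoters. Ezh2 was the only one with a GATA match, TGATAG at -47, against 26.5% of all promoters. CACC boxes lay in Ezh1, Ezh2, Bmi1 and Cbx8, and 30.1% of all promoters held one. Eed and Cbx7 held none of these letters in this window.

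The distal regions that gave the most informative values follow, on GRCm38.p6 and on the strand of the named gene, with the same motifs in capitals. The first is the stretch between the ends of Ezh1 and its neighbor Cntnap1, inside the only region whose trend in length passed the test. For the other regions, the 300 bases with the most GATA matches in the central 1000 bases are shown.
Ezh1 3′ region (chr11:101190770-101191069, minus strand, intergenic): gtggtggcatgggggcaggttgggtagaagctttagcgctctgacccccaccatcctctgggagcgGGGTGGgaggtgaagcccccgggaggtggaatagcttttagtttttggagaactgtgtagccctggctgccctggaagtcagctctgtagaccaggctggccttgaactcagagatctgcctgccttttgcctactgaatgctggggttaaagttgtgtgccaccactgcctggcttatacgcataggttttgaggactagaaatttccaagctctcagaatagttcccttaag
Ezh1 intron 1 (chr11:101221505-101221804, minus strand): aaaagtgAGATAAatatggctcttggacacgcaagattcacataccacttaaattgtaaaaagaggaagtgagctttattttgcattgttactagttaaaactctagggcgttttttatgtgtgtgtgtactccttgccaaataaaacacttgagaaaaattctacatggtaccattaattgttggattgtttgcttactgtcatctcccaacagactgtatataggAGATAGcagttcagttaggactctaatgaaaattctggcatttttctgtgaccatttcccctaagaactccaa
Ezh2 intron (chr6:47565598-47565897, minus strand): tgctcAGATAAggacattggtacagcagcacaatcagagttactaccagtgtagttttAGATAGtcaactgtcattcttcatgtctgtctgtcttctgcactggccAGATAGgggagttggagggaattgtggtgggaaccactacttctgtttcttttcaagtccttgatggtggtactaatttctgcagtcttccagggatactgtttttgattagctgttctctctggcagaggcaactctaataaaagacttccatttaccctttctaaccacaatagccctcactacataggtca
Cbx7 intron (chr15:79927593-79927892, minus strand): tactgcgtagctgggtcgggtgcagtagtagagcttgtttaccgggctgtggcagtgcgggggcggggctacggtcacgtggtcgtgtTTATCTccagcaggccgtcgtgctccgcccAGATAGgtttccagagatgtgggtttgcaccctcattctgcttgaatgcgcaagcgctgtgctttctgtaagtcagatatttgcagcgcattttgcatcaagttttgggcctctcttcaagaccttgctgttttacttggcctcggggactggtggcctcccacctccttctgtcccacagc

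In their central 1000 bases, the Ezh2 intron held 5 GATA matches, and the Ezh1 3′ region and the Cbx7 intron 3 each. The Ezh1 intron held 2, the region upstream of Kdm6b 1 and the region beyond Bmi1 none. The stretch printed for the Ezh1 3′ region lies outside the central 1000 bases of that region and holds no GATA match. GATA matches were found in 90.2% of 11773 distal H3K27ac regions, with a median of 2 per region, so their presence in these regions is ordinary. The share with 4 or more, as in the Ezh2 intron, was 30.6%.

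At the TSS, the 9 genes fell into marked and unmarked ones, and the split hardly moved with time. Ezh1, Ezh2, Eed, Suz12, Bmi1 and Cbx7 had an H3K4me3 peak within 2 kb of the TSS in all 10 lists. Cbx2, Cbx8 and Kdm6b had none in any list. H3K27ac peaks were in all 10 lists at Ezh1, Ezh2, Eed, Suz12 and Bmi1, in 5 lists at Cbx7, and again in none at Cbx2, Cbx8 and Kdm6b. Of all protein-coding genes, 43.6% had H3K4me3 in all 10 lists and 53.9% in none, and for H3K27ac the shares were 38.9% and 55.0%. Among 35 other Polycomb genes, 27 had H3K4me3 in all lists and 8 in none, among them the PRC2 partner Phf19 and the PRC1 genes Pcgf2, Pcgf5 and Phc2. The same 8 lacked H3K27ac, as did Bcor and Asxl1.

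**Figure D1:**
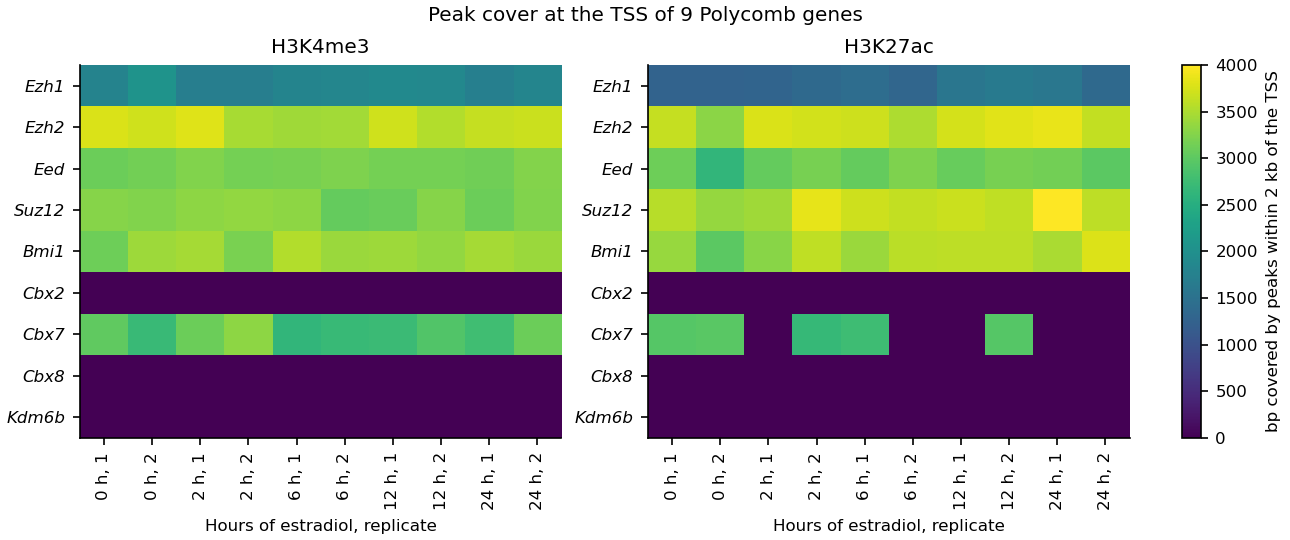
Base pairs covered by peaks within 2 kb of the TSS (color scale) for the 9 genes (rows) in each list (columns, hours of estradiol and replicate), H3K4me3 on the left and H3K27ac on the right. The rows of Cbx2, Cbx8 and Kdm6b are at 0 in all 20 lists, and that of Cbx7 is at 0 in 5 of 10 H3K27ac lists, both 24 h lists among them.

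Cbx2 and Cbx8, which encode PRC1 subunits that read H3K27 methylation, are neighbors on chromosome 11 (119022962 to 119031270 and 119036305 to 119040969). No H3K4me3, H3K27ac or CTCF peak was listed within 20 kb of either. The nearest H3K4me3 region (chr11:119267342-119270002) lay 244.4 kb from the Cbx2 TSS and 226.4 kb from that of Cbx8, and the nearest CTCF peak 23.9 and 41.9 kb away. Both promoters are rich in CpG, defined here as an observed to expected ratio of at least 0.6 and a GC content of at least 50% over 1 kb around the TSS. The CpG ratio was 1.0 at Cbx2, the highest of the 9 genes, and 0.67 at Cbx8.

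Over 20 kb around the TSS, Cbx2 had 22.9 CpG per kb and Cbx8 32.9, more than 92.2% and 99.4% of CpG-rich promoters. Kdm6b, at 31.2 CpG per kb, had only 12 CpG in the 1 kb at its TSS (ratio 0.172), so its promoter did not count as CpG-rich. Of 11794 promoters that were not CpG-rich, 79.4% had H3K4me3 in no list. Among CpG-rich promoters, those with the most CpG around them were more often without a listed peak. H3K4me3 was in no list at 24.0% of 10023 CpG-rich promoters, at 35.5% of the 1005 with the most CpG over 20 kb and at 22.7% of the rest. Bmi1 was an exception with 26.7 CpG per kb and both marks in all lists. The part of CpG density in these absences was not tested.

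Kdm6b, the demethylase (chr11:69398508-69413675, minus strand), had marks only at the edges of its locus. An H3K4me3 region of all 10 lists (chr11:69393920-69399389) covered its 3′ end and the starts of Naa38, Cyb5d1 and Tmem88, 14.3 kb from the Kdm6b TSS. Its covered length was 4914 and 5252 bp in the untreated lists and 4586 and 4732 bp in those of 24 h. The H3K27ac region there spanned 5111 to 5495 bp over the 0 and 24 h lists. Upstream, 11022 bp from the TSS and in an intron of Dnah2, lay an H3K27ac region of all 10 lists (chr11:69424697-69427091). It covered 985 and 1201 bp at 0 h, 1800 and 1346 bp after 2 h, 2290 and 1740 bp after 6 h, 1967 and 1523 bp after 12 h, and 1630 and 1905 bp after 24 h. Both 0 h lists were the shortest of the 10. The difference of 0.61 ± 0.21 (log2, SE) between 24 and 0 h did not pass (limma, adjusted p = 0.162), and the scores were low, from 50.2 to 113.

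The 6 marked genes differed in the length of their marked stretch more than most of them differed over time. H3K4me3 at the TSS covered 4104 ± 454 bp at Ezh2 (mean ± SD over the 10 lists), 4013 ± 195 bp at Suz12, 3433 ± 177 bp at Bmi1, 3305 ± 123 bp at Eed, 3062 ± 392 bp at Cbx7 and 1825 ± 103 bp at Ezh1. Neighbors in this order overlapped in their ranges, except that Ezh1, at 1716 to 2058 bp, lay below every value of the others. For H3K27ac, Bmi1 was the longest (7198 ± 367 bp), because its region joined the TSS of Commd3 with that of Bmi1. Suz12 (4214 ± 571 bp) and Ezh2 (3696 ± 202 bp) overlapped, Eed followed (3074 ± 174 bp, at most 3265 bp against at least 3302 bp in Ezh2), and Ezh1 was again the shortest of the genes present in all lists (1412 ± 137 bp). The score of the H3K27ac peak ranked Ezh2 above 99.1% or more of the peaks of its list in every list, Eed above 91.4% and Suz12 above 86.0% or more. Ezh1 lay between 34.0% and 57.1%, much like Bmi1 (32.6% to 61.2%). Cbx7 was lower, at 2.48% to 16.7% in the 5 lists that held its peak.

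Over the loci as a whole, H3K4me3 gave no call. None of the 14 tested regions passed for 24 against 0 h (limma on log2 of covered bp plus 200, Benjamini-Hochberg over all regions, threshold 0.05), where 1.58% of all 14862 regions did. None passed for the trend over time order (1.7% of all) or for the peak score (0 of 13 regions, 0.949% of all), and no member region reached an unadjusted p under 0.05 in these fits. Their median difference in length was -0.04, against -0.04 over all regions. No H3K4me3 region of the loci was gained, that is, listed in both 24 h lists and neither 0 h list (0.456% of all regions were), and none was lost (3.88%).

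For H3K27ac, 0 of 16 tested regions passed for 24 against 0 h (6.32% of all 21011), although 4 had an unadjusted p under 0.05 (21.2% of all). The trend called 1 of 16, a share near the 7.64% of all regions, and the peak score 0 of 13 (2.58% of all), again with 4 under 0.05 (17.8% of all). Of the 16 regions, 14 were longer at 24 h and 1 shorter, with a median of 0.10 on the log2 scale. Over all regions 53.8% were longer, with a median of 0.01. The lengths of the 0 and 24 h lists did not overlap in 8 of the 16, 7 of them longer at 24 h, and in 4 of 14 for H3K4me3. The share over all regions was 46.2% (25.5% longer and 20.7% shorter) for H3K27ac and 41.2% for H3K4me3. At the TSS, 5 of 6 were longer with a median of 0.14, where regions at the TSS of all genes had a median of 0.05 and 63.4% were longer.

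**Figure D2:**
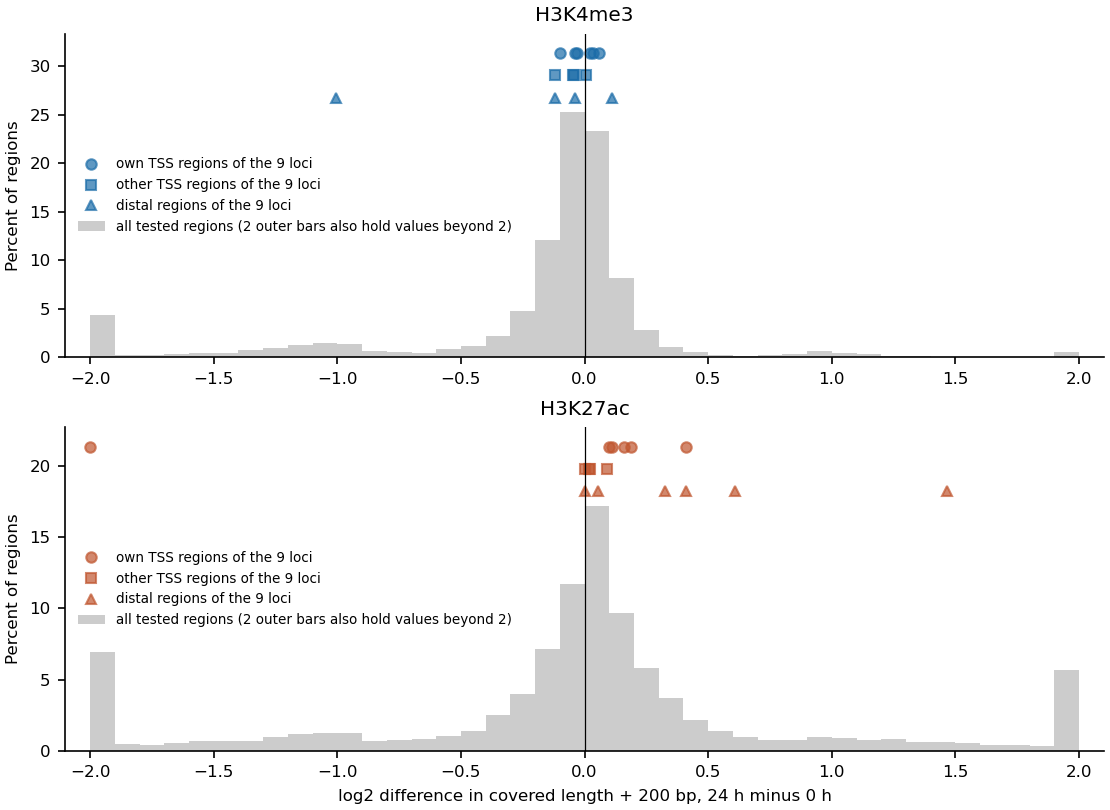
Difference in covered length between 24 h and 0 h (log2 of covered bp plus 200, x axis) for all tested regions (gray bars, percent of regions on the y axis) and for the regions of the 9 loci (symbols by class, placed above the bars at arbitrary heights), H3K4me3 above and H3K27ac below. Symbols beyond the axis stand at its end, as the Cbx7 TSS does. Of the 16 H3K27ac symbols 14 lie above 0, and those of H3K4me3 lie on both sides of 0.

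The locus of Ezh1 (chr11:101191115-101226463, minus strand) held the only region of the 9 loci that passed a test, where Ezh1 and Cntnap1 end. An H3K27ac region of all 10 lists (chr11:101188575-101191681) covers the 3′ UTR of Ezh1 and the last coding exon and 3′ UTR of Cntnap1. Most of the region lies outside the annotated Ezh1 gene, on the Cntnap1 side, and its link to either gene was not tested. It lies 34769 bp downstream of the Ezh1 TSS and outside 2 kb of any protein-coding TSS. It covered 2133 and 1841 bp at 0 h, 2147 and 2127 bp after 2 h, 2429 and 2246 bp after 6 h, 2477 and 2855 bp after 12 h, and 2645 and 2752 bp after 24 h. All 12 and 24 h lists exceeded all lists of the earlier times. The mean was 1987 ± 206 bp in untreated cells and 2699 ± 75.7 bp after 24 h (SD, n = 2). The trend was 0.11 ± 0.02 log2 units per time step (SE) and passed (limma, adjusted p = 0.0296). The difference between 24 and 0 h, 0.41 ± 0.10, did not pass (adjusted p = 0.0651), and the score, 170 and 187 in the untreated lists and 288 and 219 in those of 24 h, did not pass either (adjusted p = 0.219). The call was lost without the second 0 h list, without either 2 h list and without either 24 h list. The trend itself stayed at 0.092 to 0.13 per time step whichever list was left out. With only peaks above the median score, the adjusted p of the trend was 0.466 (limma).

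**Figure D3:**
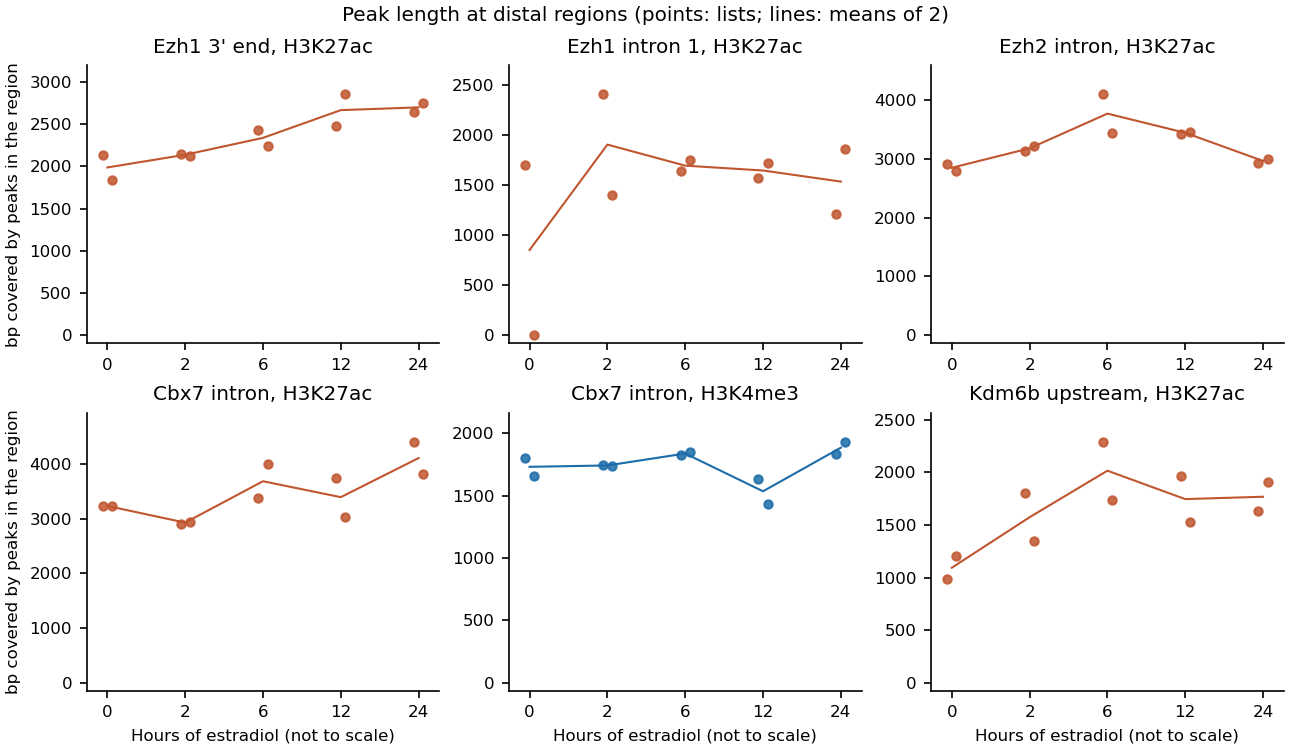
Base pairs covered by peaks (y axis) at 6 distal regions against hours of estradiol (x axis, evenly spaced and not to scale), with 1 point per list and lines through the means of 2. The Ezh1 3′ region climbs from 1841 and 2133 bp to 2645 and 2752 bp. The Ezh2 intron has its highest mean at 6 h, a pattern that was not tested.

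No other region of the Ezh1 locus passed a test over all 10 lists. At the TSS, H3K27ac (chr11:101225234-101227045) covered 1267 and 1276 bp at 0 h, 1296 and 1363 bp after 2 h, 1425 and 1325 bp after 6 h, 1572 and 1629 bp after 12 h, and 1592 and 1370 bp after 24 h. The 0 h lists were the shortest, and the 24 h value was 0.19 ± 0.12 higher (log2, SE), within the spread (limma, adjusted p = 0.463). H3K4me3 at the same place (chr11:101225094-101227188) covered 1789 and 2058 bp in the untreated lists and 1729 and 1823 bp in those of 24 h, which overlap. In the first intron of the gene, 3450 bp from the TSS, an H3K27ac region (chr11:101220591-101223000) was listed in 9 of 10 lists. It covered 1699 and 0 bp at 0 h, 2404 and 1398 bp after 2 h, 1636 and 1746 bp after 6 h, 1571 and 1714 bp after 12 h, and 1205 and 1859 bp after 24 h. The second 0 h list alone lacked it, and scores were low (55.2 to 113). The length difference of this region, 1.465 ± 0.944, did not pass (limma, adjusted p = 0.464). Without the first 0 h list, only the 0 h list at 0 bp remains, and the difference is then 3.088.

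Ezh2 (chr6:47530139-47595341, minus strand), the other PRC2 enzyme, kept both marks at its TSS. H3K27ac (chr6:47592803-47597050) covered 3644 and 3302 bp at 0 h, 3778 and 3720 bp after 2 h, 3703 and 3506 bp after 6 h, 3739 and 4043 bp after 12 h, and 3891 and 3631 bp after 24 h. The 0 and 24 h lists overlapped, with a difference of 0.11 ± 0.07 (limma, adjusted p = 0.476). H3K4me3 (chr6:47591838-47596838) varied from 3446 bp in a 6 h list to 4901 bp in a 0 h list. Its difference was -0.03 ± 0.12 (adjusted p = 0.981). Both marks were thus listed at Ezh2 at every time, and a change smaller than the spread between 2 lists could not be seen.

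Inside the gene, 27551 bp from the TSS, an intronic H3K27ac region of all 10 lists (chr6:47563378-47567479) covered 2907 and 2792 bp at 0 h, 3137 and 3223 bp after 2 h, 4102 and 3440 bp after 6 h, 3431 and 3458 bp after 12 h, and 2927 and 3003 bp after 24 h. The 2, 6 and 12 h lists were all longer than those of 0 and 24 h, but such a rise and fall was not tested. Neither the length difference between 24 and 0 h (limma, adjusted p = 0.772) nor the trend (limma, adjusted p = 0.553) passed. The score of the region was 84.3 and 61.1 in the untreated lists and 142 and 104 in those of 24 h. That difference of 0.85 ± 0.31 in normalized log2 score did not pass (limma, adjusted p = 0.177). A second region over an exon (chr6:47560744-47562692) was listed in 1 of 10 lists, the first at 0 h, and was not tested.

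The ratio of Ezh1 to Ezh2 at the TSS put the 2 enzymes side by side within each list. This comparison was added after the values were seen. The H3K27ac length ratio was 0.348 and 0.386 at 0 h, 0.343 and 0.366 after 2 h, 0.385 and 0.378 after 6 h, 0.42 and 0.403 after 12 h, and 0.409 and 0.377 after 24 h. The H3K27ac score ratio was 0.207 and 0.163 in the untreated lists, 0.136 and 0.237 after 2 h, 0.163 and 0.119 after 6 h, 0.238 and 0.203 after 12 h, and 0.246 and 0.22 after 24 h. Both 24 h score ratios exceeded both 0 h ones, but a 2 h list and a 12 h list lay between the 24 h values and lower values came from 2 and 6 h. The length ratios of 0 and 24 h overlapped. Against hours, Pearson's r over 10 lists was 0.57 for length (permutation p = 0.0774, 0.27 adjusted over 4 ratios) and 0.49 for score (permutation p = 0.135, 0.27 adjusted). Spearman's rho was 0.542 (permutation p = 0.117, 0.422 adjusted) and 0.443 (permutation p = 0.211, 0.422 adjusted). Without the 24 h lists, r was 0.801 for length (exact permutation p = 0.0175, unadjusted, n = 8) and 0.239 for score (exact permutation p = 0.563). This subset leaves out the end point of the time course, where the length ratios overlapped those of 0 h. No shift between the enzymes is therefore read from it.

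The H3K4me3 ratios had weaker relations to time. Length gave r = -0.378 (permutation p = 0.272, 0.363 adjusted) and rho = -0.222 (permutation p = 0.554, 0.739 adjusted), with r = 0.051 without the 24 h lists. Score gave r = 0.175 (permutation p = 0.618, also adjusted) and rho = 0.0246 (permutation p = 0.97), with r = 0.0849 without the 24 h lists. None of the 4 ratios passed after adjustment.

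**Figure D4:**
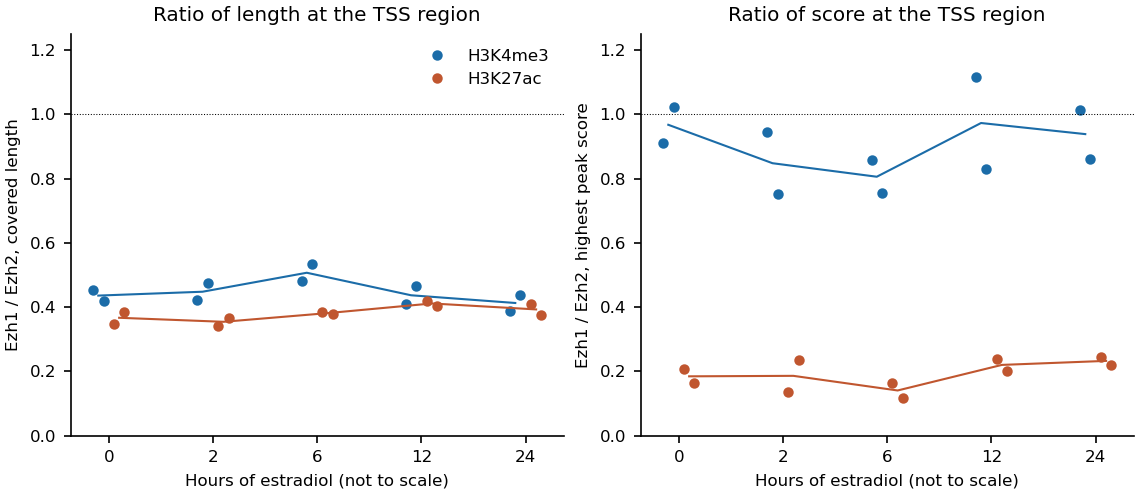
Ratio of Ezh1 to Ezh2 at the TSS region in each list (points) against hours of estradiol (x axis, not to scale), for covered length on the left and the highest peak score on the right, with lines through the means of 2 and a dotted line at 1. H3K27ac score ratios stay between 0.119 and 0.246, and H3K4me3 score ratios lie around 1.

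As a description, the genes whose TSS lengths varied most like those of Ezh1 over the 20 histone lists, each mark centered on its mean, were Zfp963 (Pearson's r = 0.849), Add1 (0.827) and Rnf149 (0.823), among 8424 genes marked in all 20 lists. For Ezh2 they were Cnot7 and Vps37a (both 0.874) and Hdhd3 (0.81). Ezh1 and Ezh2 had r = 0.529 with each other, just above the 90th percentile of all genes against Ezh1 (0.497). The lists share their libraries across genes, so that part of any such r is common to many genes.

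Among the PRC2 core subunits, Suz12 kept its TSS peaks of both marks in all lists, and neither mark's length passed a test over all 10 lists. Its H3K27ac region at the TSS (chr11:79991072-79996126) covered 3569 and 3366 bp at 0 h, 3430 and 4810 bp after 2 h, 4682 and 4417 bp after 6 h, 4001 and 4512 bp after 12 h, and 4734 and 4622 bp after 24 h. Both 0 h lists and 1 of the 2 h lists stood below all others. The difference of 0.41 ± 0.15 did not pass over all 10 lists (limma, adjusted p = 0.173). The difference stayed at 0.41 when either 2 h list was left out. It also stayed at 0.41 in a fit to the 0 and 24 h lists alone, where it passed (limma, adjusted p = 0.0376). That fit leaves out the 2 h lists, which disagreed, and only the SE fell, to 0.057. This pass is therefore no separate support for a gain in length. The score ran the other way, from 1025 and 1199 to 829 and 724 (-0.51 ± 0.18, adjusted p = 0.162). Most of the added cover lay beyond 2 kb of the TSS, since the mean cover within 2 kb was 334 bp higher at 24 h and that within 5 kb 1211 bp higher. H3K4me3 there (chr11:79991756-79996005) covered 4095 and 4127 bp in the untreated lists and 3863 and 4139 bp in those of 24 h, and overlapped.

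Eed, whose product binds methylated H3K27 and stimulates the enzyme, had no TSS region that passed a test. H3K27ac at its TSS (chr7:89978950-89982222) covered 3117 and 2633 bp in the untreated lists and 3163 and 3008 bp in those of 24 h (0.10 ± 0.09, limma, adjusted p = 0.573). H3K4me3 (chr7:89978709-89982235) covered 3357 and 3146 bp in the untreated lists and 3403 and 3384 bp in those of 24 h. Both 24 h lists were thus slightly longer, by 0.06 ± 0.05 (limma, adjusted p = 0.732). In an Eed intron, beside another start of the gene, a short H3K27ac region (chr7:89966381-89967017) was listed only in the 2 lists of 6 h, at 446 and 637 bp and scores of 58.2 and 53.9, close to the lowest score of 50.0. An H3K4me3 region at -17121 bp from the TSS (chr7:89998104-89998786) was in 2 lists, 606 bp in the second at 0 h and 482 bp in the first at 6 h.

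**Figure D5:**
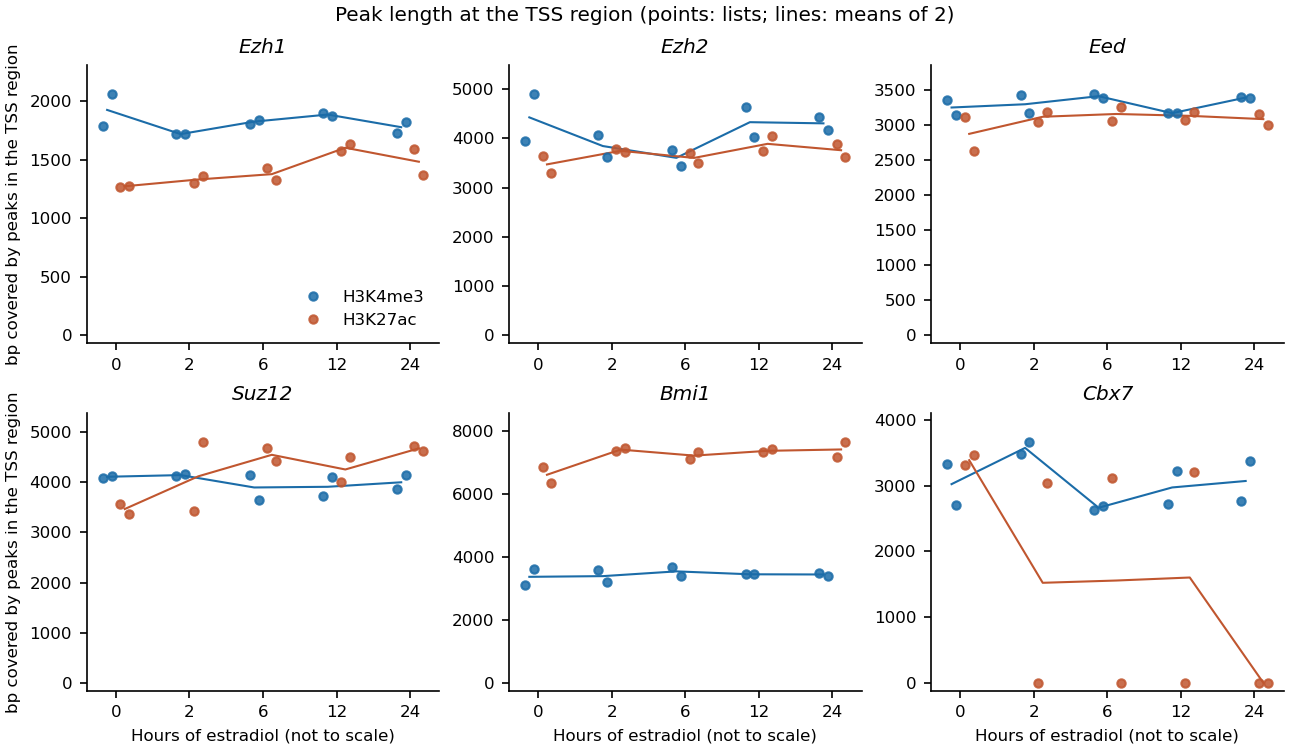
Base pairs covered by peaks (y axis) in the TSS region of the 6 marked genes against hours of estradiol (x axis, not to scale), H3K4me3 in blue and H3K27ac in orange, with 1 point per list and lines through the means of 2. H3K27ac at Cbx7 falls from 3317 and 3462 bp at 0 h to 0 in both 24 h lists, and at Suz12 the 24 h lists (4734 and 4622 bp) lie above the 0 h lists (3569 and 3366 bp).

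Of the PRC1 genes, Cbx7 (chr15:79915807-79971119, minus strand) had the only region lost by 24 h, 1 of 17 (4.18% of all H3K27ac regions were lost and 3.43% gained). H3K27ac at its TSS (chr15:79931669-79935130) covered 3317 and 3462 bp at 0 h, 0 and 3044 bp after 2 h, 3113 and 0 bp after 6 h, 0 and 3205 bp after 12 h, and 0 bp in both lists at 24 h. Each time point between thus had it in 1 list of 2. Its scores, 81.0 and 65.8 at 0 h and 53.3 to 56.5 later, lay close to the lowest listed score, and the length difference did not pass (limma, -4.17 ± 1.96, adjusted p = 0.303). It passed in the fit to the 0 and 24 h lists alone (adjusted p = 0.00716) and with equal numbers of top-scoring peaks per list (adjusted p = 0.000374). The first leaves out the time points at which the 2 lists disagreed, and the second drops the weakest peaks. Neither changed the difference of -4.17, and only its SE fell, to 0.149 and 0.272. These passes are therefore no separate support for a loss. H3K4me3 at the same TSS (chr15:79931324-79935014) was in all 10 lists, at 3338 and 2711 bp in the untreated lists and 2770 and 3375 bp in those of 24 h.

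Next to it, 2210 bp downstream of the TSS used here (position 79932639, inside the annotated gene, which has starts farther upstream), an intronic H3K27ac region (chr15:79925757-79930429) was in all 10 lists. It covered 3236 and 3232 bp at 0 h, 2910 and 2947 bp after 2 h, 3379 and 3992 bp after 6 h, 3751 and 3038 bp after 12 h, and 4408 and 3811 bp after 24 h. The 24 h lists were longer than the 0 h lists, by 0.32 ± 0.12 (limma, adjusted p = 0.2). The scores there, 384 to 709, exceeded those at the Cbx7 TSS in each of the 5 lists that held a TSS peak. An H3K4me3 region in the same intron (chr15:79926683-79928666) was in all 10 lists at 1435 to 1932 bp, with scores of 51.7 to 147.

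Bmi1 (chr2:18677018-18686629, plus strand) shared its H3K27ac region (chr2:18670952-18678890) with Commd3. It covered 6849 and 6358 bp at 0 h, 7354 and 7452 bp after 2 h, 7095 and 7329 bp after 6 h, 7312 and 7416 bp after 12 h, and 7163 and 7652 bp after 24 h. Both 0 h lists were the shortest of the 10, and the 24 h value was 0.16 ± 0.08 higher (limma, adjusted p = 0.302). H3K4me3 at the Bmi1 TSS (chr2:18675483-18679224) was apart from that of Commd3 and covered 3111 and 3615 bp in the untreated lists and 3482 and 3393 bp in those of 24 h. An intergenic H3K4me3 region 11518 bp downstream of the TSS (chr2:18688536-18691254) was in all 10 lists at 2262 to 2602 bp, without an H3K27ac region over it. Farther downstream, H3K27ac (chr2:18693514-18695329) and H3K4me3 (chr2:18692940-18695567) lay over a noncoding exon of Spag6. H3K27ac there covered 1355 to 1732 bp, and its score went from 857 and 935 to 672 and 685 (-0.39 ± 0.15, adjusted p = 0.196).

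Of the 35 other Polycomb genes, 25 had a tested H3K27ac region at the TSS, 1 of which passed for length. Over all H3K27ac regions, 6.32% passed for length, 7.64% for the trend and 2.58% for the score, so 1 call among 25 is ordinary. The gene that passed was Pcgf3, a PRC1 subunit related to Bmi1. Its region (chr5:108460377-108468275) covered 3202 and 2721 bp at 0 h, 3167 and 3568 bp after 2 h, 4160 and 3197 bp after 6 h, 3131 and 3714 bp after 12 h, and 7728 and 7335 bp after 24 h. The step came between 12 and 24 h in both lists. The difference of 1.29 ± 0.15 passed (limma, adjusted p = 0.00347), as did the trend (adjusted p = 0.00527), while the highest score fell by 1.97 on the log2 scale (adjusted p = 0.00525). Both length calls were lost with only peaks above the median score (adjusted p = 0.161 and 0.188) and held in the other alternatives, 19 of 20 and 15 of 16.

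The next lowest p-values for H3K27ac length belonged to Phc1 (-0.29, adjusted p = 0.181) and L3mbtl2 (0.25, adjusted p = 0.2). For H3K4me3, 0 of 27 other Polycomb genes passed in any of the 3 fits, which called 0.949% to 1.7% of all regions. The lowest for length were Pcgf3 (0.33, limma, adjusted p = 0.258), Phc1 (-0.15, adjusted p = 0.447) and Mtf2 (-0.16, adjusted p = 0.627). The median H3K27ac length difference was 0.05 for the 25 genes and 0.05 for the TSS regions of all genes.

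CTCF was listed in 30 regions of the 9 loci, 17 at both times, 2 only at 0 h and 11 only at 24 h. The share only at 24 h was 36.7%, against 25.1% of 43987 regions genome-wide, and with 1 list per time there is no replicate check. The 24 h list was the larger, with 41473 peaks against 33193. At the Ezh1 TSS a CTCF peak (chr11:101225996-101227202, score 77.9) was listed only at 24 h, as was one at the Suz12 TSS (chr11:79992429-79993375, score 51.3). At Bmi1, a peak that ends 32 bp before the TSS was in both lists. In the bodies of Ezh1, Ezh2, Eed, Suz12, Cbx7 and Kdm6b, at least 1 CTCF peak was in both lists, such as the one in an exon of Ezh2 (chr6:47561214-47562083, scores 106 and 143).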

How the data were processed

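H3K4me3, H3K27ac and CTCF ChIP-seq peaks of G1ER cells were analysed from 22 lists. Per the study's methods and processing notes, the authors aligned reads with Bowtie2 to mm10 and called peaks with MACS without its shifting model. The deposited lists hold positions and a score, which the authors' caller derives from −log10 of the p-value, from 50 to 3100. Peak length depends on depth and threshold, and depth is not given, so no counting interval was possible. The peaks of the 10 lists of a mark were merged where they touched. Covered length per list was tested as log2(bp + 200) with limma 3.58.1 (R 4.3.3), in regions listed at least 2 times, for 24 against 0 h and for a trend over the 5 time points, and quantile-normalised log2 scores in regions of all 10 lists. P-values were adjusted over all regions (Benjamini-Hochberg, 0.05). The length fits were tested on simulated data with normal noise, based on regions found in all 10 lists and with large changes put in. Small changes and regions absent from some lists were not simulated, and such regions depart from limma's normal errors. Nothing says that the 2 lists of a time come from separate cultures, so p-values measure the spread between lists, which may be technical. Ratios used permutation tests (100000 resamples, two-sided, scipy 1.17.1). Members and lists were chosen with earlier results of these data known. All members were named, and of 35 other Polycomb genes those that passed plus the 3 lowest p-values. Alternatives changed the score minimum, peak number, merging, pseudocount, filters, scaling, windows, flanks, lists in the fit and replicate block. Some genes of the lists are not reported here by name.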

Additional observations from a re-analysis of the deposited data

How the results depend on the processing

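No value of a region in the loci that passed a test changed sign under an alternative, and no H3K4me3 region of the loci passed under any. For H3K27ac length at 24 against 0 h, the count of 0 member regions became 1 with equal numbers of top-scoring peaks (the Cbx7 TSS), 2 in the fit to the 0 and 24 h lists alone (the Suz12 and Cbx7 TSS), and 0 to 1 when single lists were left out. For the H3K27ac trend, the count of 1 became 0 with a score minimum at the median of all peaks and 0 with the replicate block, and 0 to 2 without single lists. The numbers share only a number: deviations of same-numbered lists correlated by -0.116 to 0.039 for H3K4me3 and -0.032 to 0.016 for H3K27ac, and the replicate block moved the H3K4me3 length calls over all regions from 235 to 146. Gained or lost H3K27ac regions of the loci went from 1 to 0 at the score minimum and 1 to 2 without single lists, and H3K4me3 from 0 to 1 (range 0 to 1). A flank of 50 kb raised the regions from 14 to 24 for H3K4me3 and from 17 to 29 for H3K27ac.

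Over all regions, calls for length ran from 75 (without the first 0 h list) to 734 (0 and 24 h alone) for H3K4me3 and from 405 (score minimum) to 2339 for H3K27ac (main 1327), and for the trend from 95 to 300 (main 252) and 482 to 1733 (main 1605). Score calls were 73 to 119 (main 109) and 33 to 466 (main 341). Gained or lost regions numbered 704 for H3K4me3 (305 at the score minimum, 408 at equal numbers, up to 1531 without a list) and 1848 for H3K27ac (737 at the score minimum, up to 3338). The causes were not tested. With 2 lists per time and no read depth, small changes in length and weak peaks near the lowest score could not be resolved.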
